A study of Homo sapiens with 4 samples.

Results

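Aminoacyl-tRNA synthetases join each amino acid to its transfer RNA and so supply the substrates of the ribosome. Human cells use separate nuclear genes for most cytosolic and mitochondrial enzymes, and the mitochondrial set serves the organelle's own ribosomes, which make subunits of the respiratory chain. Many cytosolic synthetase genes are known targets of ATF4, the transcription factor that cells make when amino acids run short or other stresses phosphorylate the initiation factor eIF2. Expression of 35 synthetase genes, 19 cytosolic and 16 mitochondrial, was examined in KYSE170 cells, an established human line of oesophageal squamous carcinoma. Genes were taken by name, whether or not the symbol carries its final 1, and only probe sets annotated to exactly 1 gene were used. This left 32 measured genes of 19753 in all, 17 cytosolic and 15 mitochondrial. GARS1 and KARS1, which encode enzymes of both compartments, were counted as cytosolic. MARS1, QARS1 and TARS2 had only probe sets that the annotation shares with a microRNA gene, and no value is given for them.

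The arrays were 2 of cells kept for 12 h with EDHB at 50 µg/ml and 2 of untreated cells, all grown in medium with serum and antibiotics, and all from total RNA on an Affymetrix platform. EDHB, ethyl-3,4-dihydroxybenzoate, inhibits prolyl hydroxylases that need iron and 2-oxoglutarate, including the enzymes by which cells destroy hypoxia-inducible factors when oxygen is present. The comparison asks how the expression profile differed after EDHB. A single cell line and a single dose and time were used, the labels do not say whether the replicates were separate cultures, and p-values therefore measure only the spread between these arrays, which may be technical. Median intensity lay between 23.3 and 23.5 on the 4 arrays. In the deposited table, the rows of replicate 1 and replicate 2 are not in the same order. The order of replicate 2 was restored from the untreated arrays, and all 67 probe sets of the 32 genes were placed with a posterior that rounded to 1. Changes within replicate 1 need no restoring and are given beside those within replicate 2. Of the squamous epithelial markers, 5 of 6 measured lay above the median probe set (a log2 intensity of 4.54), with KRT14 below it. Of other cell types, 2 of 6 mesenchymal, 0 of 2 leukocyte and 1 of 3 endothelial markers did.

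Because ATF4 is known to act on target genes through a composite C/EBP-ATF element, the promoters were searched for its core, TGATGNAA, on both strands (TTNCATCA on the other). The search took the 250 bases before and 50 bases after each start that RefSeq annotates on GRCh38.p14, and the motif was chosen with the results of these arrays known. Of 30 synthetase genes with a promoter in the table, 8 held the motif (26.7%), against 4.46% of 27305 genes. It was present in 7 of 16 cytosolic genes and in 1 of 14 mitochondrial genes, and AARS2, LARS1, VARS1, VARS2 and YARS1 were not searched. The 8 stretches of 40 bases are shown because they mark which genes share the element, 5′ to 3′ on the strand of the gene, with the motif in capitals.
CARS1: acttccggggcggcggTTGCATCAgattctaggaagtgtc
GARS1: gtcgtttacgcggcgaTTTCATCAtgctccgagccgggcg
AARS1: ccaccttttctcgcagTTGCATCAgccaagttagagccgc
TARS1: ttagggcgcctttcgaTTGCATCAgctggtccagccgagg
NARS1: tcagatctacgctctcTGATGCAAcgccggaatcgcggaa
IARS1: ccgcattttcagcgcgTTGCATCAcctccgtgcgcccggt
MARS1: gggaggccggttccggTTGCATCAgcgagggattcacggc
YARS2: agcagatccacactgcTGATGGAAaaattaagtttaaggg

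These stretches lie on GRCh38.p14 at chr11:3057402-3057441 (minus strand, CARS1), chr7:30594829-30594868 (plus, GARS1), chr16:70289670-70289709 (minus, AARS1), chr5:33440951-33440990 (plus, TARS1) and chr18:57621799-57621838 (minus, NARS1). Those of IARS1, MARS1 and YARS2 lie at chr9:92293687-92293726 (minus), chr12:57488048-57488087 (plus) and chr12:32756071-32756110 (minus). The first base of the motif stood close to an annotated start in most of them. It lay 2 bases before the start of CARS1, 4 before that of MARS1, 13 before that of IARS1 and 33 before that of GARS1, and 2 and 14 bases after those of TARS1 and NARS1. In AARS1 and YARS2 it lay 187 and 197 bases before the start. A match describes letters only, and binding was not measured here.

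The whole promoters of CARS1 and MARS2 are shown as well, since these genes had the largest positive and the largest negative change among the 32. The first is at chr11:3057374-3057673 (minus strand) and the second at chr2:197705119-197705418 (plus strand), on GRCh38.p14 from RefSeq, with the motif in capitals where it occurs.
CARS1: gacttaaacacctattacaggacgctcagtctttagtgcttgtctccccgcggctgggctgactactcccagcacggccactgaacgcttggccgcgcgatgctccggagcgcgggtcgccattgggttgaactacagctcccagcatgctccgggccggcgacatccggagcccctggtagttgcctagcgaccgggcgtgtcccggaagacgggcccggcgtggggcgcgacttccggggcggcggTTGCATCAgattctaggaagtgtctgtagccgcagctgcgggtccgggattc
MARS2: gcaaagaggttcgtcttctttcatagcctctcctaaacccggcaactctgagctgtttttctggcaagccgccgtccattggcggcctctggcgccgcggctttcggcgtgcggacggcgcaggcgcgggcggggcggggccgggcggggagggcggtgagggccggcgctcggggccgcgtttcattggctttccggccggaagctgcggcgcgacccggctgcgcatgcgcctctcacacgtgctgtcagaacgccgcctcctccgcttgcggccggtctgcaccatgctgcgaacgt

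After EDHB the cytosolic enzymes had changes of both signs, while 13 of 15 mitochondrial enzymes had lower mean levels. Of 17 cytosolic genes, 9 had a positive and 8 a negative mean log2 change, and they ran from -0.62 for FARSA to 0.72 for CARS1. The mitochondrial genes ran from -0.82 for MARS2 to 0.04 for FARS2. Centring the arrays on their medians turned HARS2, from 0.00 to -0.03, and made the mitochondrial count 14, and averaging all probe sets of a gene made it 11. The median log2 change was 0.05 over the cytosolic genes and -0.12 over the mitochondrial genes, against -0.0014 over all genes and 0.01 over the 12401 genes at or above the median probe set. The difference of the medians, cytosolic minus mitochondrial, was 0.16 log2 units. It was 0.11 within the replicate 1 pair, where the cytosolic median was 0.0027 and the mitochondrial median was -0.11.

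**Figure D1:**
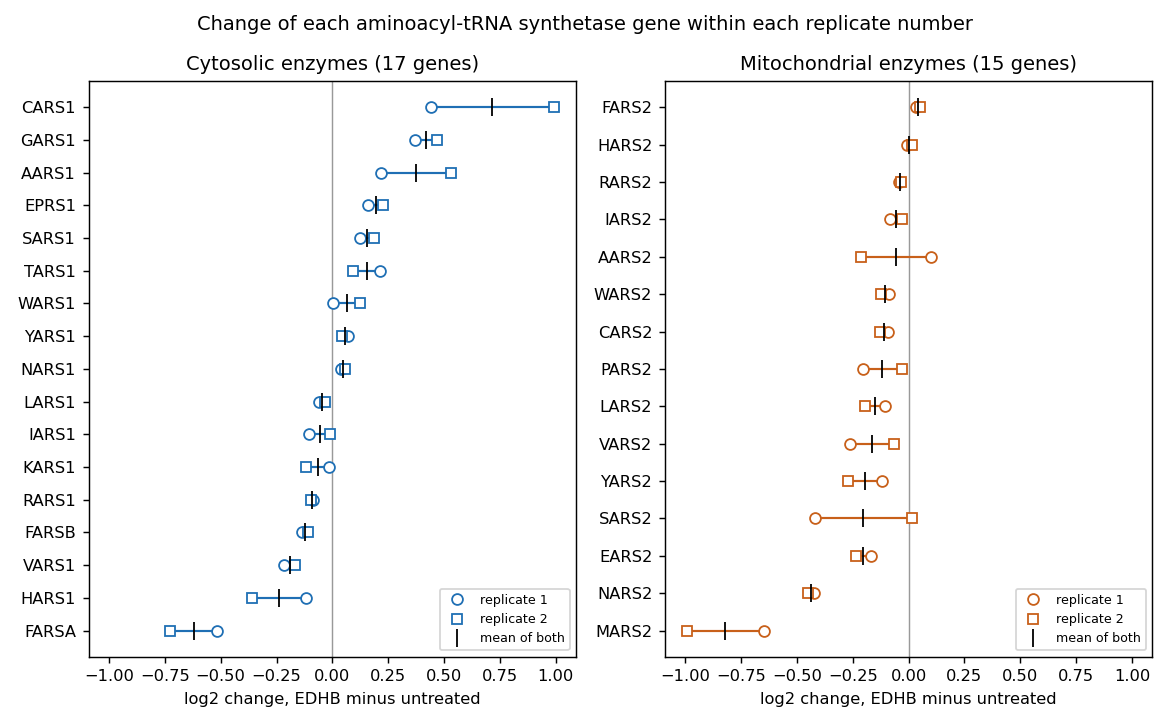
Log2 change (EDHB minus untreated) of 17 cytosolic genes (left) and 15 mitochondrial genes (right) within replicate 1 (circles) and replicate 2 (squares), with the mean as a black bar. CARS1, GARS1 and AARS1 lie farthest to the right, and MARS2, FARSA and NARS2 farthest to the left.

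In limma with its default prior, 2 of all genes (0.0101%) passed a Benjamini-Hochberg adjusted p under 0.05, and 0 of the 32 synthetase genes did. Without adjustment, 7 synthetase genes had a p under 0.05, 4 higher and 3 lower, where the share of all genes was 16.8% (8.8% higher and 7.99% lower). When limma's prior variance was allowed to follow intensity, 4 synthetase genes passed, against 1.9% of all genes. Under that fit GARS1 rose (1.07% of all genes rose), and FARSA, MARS2 and NARS2 fell (0.83% of all genes fell). The same 4 passed with the default prior once genes below the median probe set were left out, where 3.44% of genes passed. The 4 calls of the trend fit were lost when any 1 of the 4 arrays was left out, and also with the replicate number as a block, both chosen after seeing the data.

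Separation of the arrays, read from the same values as the mean changes and so not independent of them, also differed between the compartments. Both EDHB arrays lay above both untreated arrays in 9 of 17 cytosolic genes (52.9%) and below them in 5 (29.4%). Among mitochondrial genes they lay above in 1 of 15 (6.67%) and below in 10 (66.7%). Over all genes these shares were 23.2% above and 22.5% below, and over genes at or above the median probe set they were 28.5% and 25.9%. With 2 arrays against 2, an exact permutation test cannot give a two-sided p below 0.333, and no p-value was computed for the difference between the compartments.

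**Figure D2:**
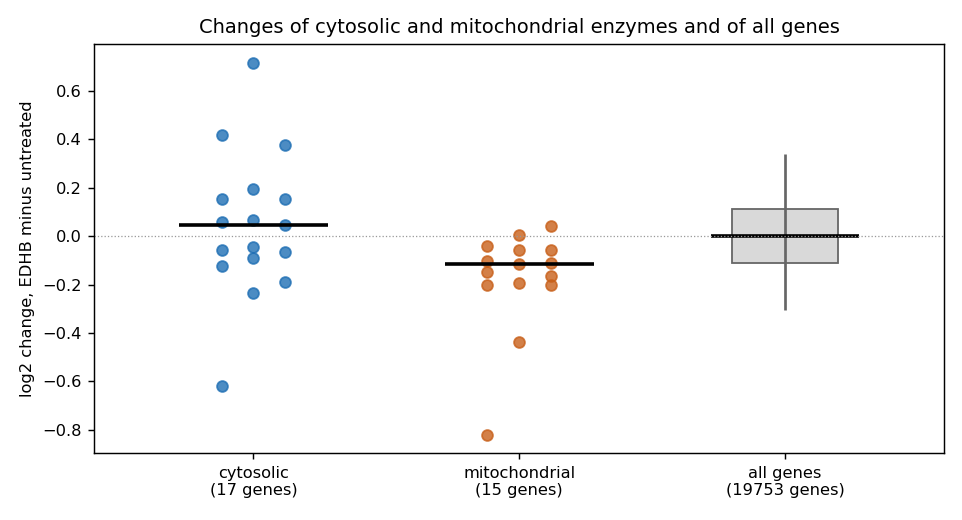
Log2 change (EDHB minus untreated) of each cytosolic and mitochondrial synthetase gene (points) and of all genes (box from the 25th to the 75th percentile, line from the 5th to the 95th), with medians as thick bars. The mitochondrial points sit mostly between 0 and the lower edge of the line for all genes, whereas the cytosolic points spread to both sides.

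CARS1, which charges cysteine, had the largest positive change. Its brightest probe set had log2 intensities of 10.50 and 10.63 on the EDHB arrays, against 10.06 and 9.64 on the untreated arrays. Both EDHB arrays were above both untreated arrays, and the untreated pair was the more spread. The change was 0.72 ± 0.16 (SE, n = 2 and 2), a 1.64-fold higher intensity, with changes of 0.44 and 0.99 within replicates 1 and 2 (limma adjusted p = 0.155, and 0.0612 with the intensity trend). The 3 other probe sets of CARS1 changed the same way, by 0.45, 0.60 and 0.68.

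GARS1 encodes the glycine enzyme of both cytosol and mitochondria. It had log2 intensities of 11.61 and 11.70 on the EDHB arrays and 11.24 and 11.23 on the untreated arrays, 1.34-fold higher with EDHB. The groups stood apart by more than the spread within either, and the change of 0.42 ± 0.08 (SE, n = 2 and 2) had a limma adjusted p of 0.135, and of 0.0246 with the intensity trend. AARS1, the alanine enzyme, had 9.46 and 9.60 on the EDHB arrays against 9.24 and 9.07 on the untreated arrays. Here the change was 0.22 within replicate 1 and 0.53 within replicate 2, with a mean of 0.37 ± 0.10 (SE) and a limma adjusted p of 0.190. All 3 of these genes are known ATF4 targets and hold the motif shown above.

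EPRS1, a fused enzyme for glutamate and proline within the multisynthetase complex, had 10.94 and 10.96 on the EDHB arrays and 10.78 and 10.73 on the untreated arrays, a change of 0.19 ± 0.07 (SE). Its 2 other probe sets were higher by 0.14 and 0.24. SARS1, the serine enzyme, had 9.62 and 9.67 on the EDHB arrays against 9.50 and 9.49 on the untreated arrays, a change of 0.15. A dimmer probe set of SARS1 was higher by 0.66 ± 0.11 (SE), with 6.77 and 6.91 on the EDHB arrays and 6.08 and 6.27 on the untreated arrays, so its 2 probe sets differ in the size of the change and not in its direction. TARS1, the threonine enzyme, had 11.09 and 11.07 on the EDHB arrays against 10.88 and 10.98 on the untreated arrays. In all 3 genes the groups did not overlap, and none passed in either limma fit (adjusted p of 0.294, 0.384 and 0.423 with the default prior).

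**Figure D3:**
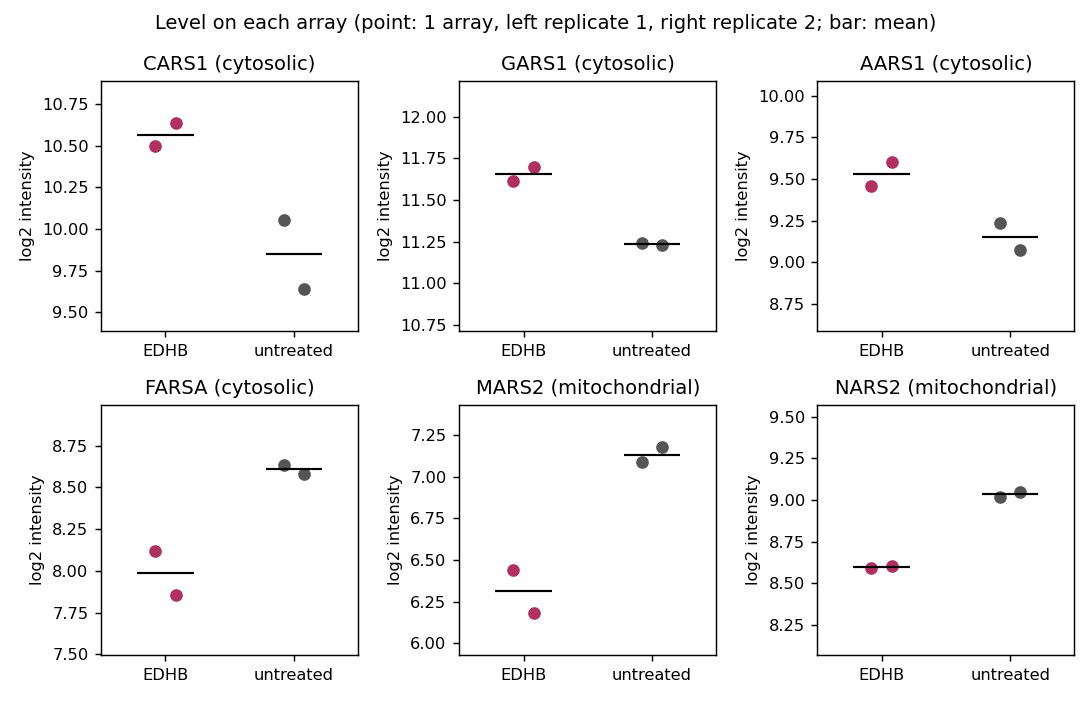
Log2 intensity on each array for CARS1, GARS1, AARS1, FARSA, MARS2 and NARS2 (points are single arrays, bars are means), with EDHB left of untreated and every panel spanning the same range of log2 units. In each gene the 2 EDHB arrays lie on 1 side of both untreated arrays, above them in CARS1, GARS1 and AARS1 and below them in FARSA, MARS2 and NARS2.

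FARSA, the catalytic alpha subunit of the phenylalanine enzyme, had the lowest change among the cytosolic genes. It had log2 intensities of 8.12 and 7.86 on the EDHB arrays and 8.64 and 8.58 on the untreated arrays. The EDHB level was 65.1% of the untreated level, a change of -0.62 ± 0.11 (SE, n = 2 and 2) with a limma adjusted p of 0.133, and of 0.0481 with the intensity trend. Its other probe set changed by -0.47. FARSB encodes the beta subunit of the same enzyme. It had 9.61 and 9.39 on the EDHB arrays against 9.75 and 9.50 on the untreated arrays, and the groups overlapped. Its change was -0.12 ± 0.13 (SE) on that probe set, whereas a dimmer one was higher by 0.56 and the remaining one, below the median probe set, was higher by 0.09. The direction of FARSB thus differs between its probe sets.

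HARS1, the histidine enzyme, had 9.97 and 9.75 on the EDHB arrays against 10.09 and 10.11 on the untreated arrays, a change of -0.24 ± 0.10 (SE). VARS1, the valine enzyme, had 8.56 and 8.34 on the EDHB arrays and 8.77 and 8.51 on the untreated arrays, which overlapped. Its change of -0.19 ran from -0.32 to -0.06 when single arrays were left out, and its other probe set was higher by 0.05. RARS1, for arginine, had 11.07 and 11.08 on the EDHB arrays against 11.16 and 11.17 on the untreated arrays. KARS1, the lysine enzyme of both compartments, had 12.60 on both EDHB arrays against 12.61 and 12.72 on the untreated arrays. Its other probe set changed by -0.16, more than the -0.07 of the brightest. The changes of these 4 genes on their brightest probe sets were between -0.07 and -0.24 log2 units. None passed in limma (lowest adjusted p = 0.337, for HARS1).

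The other 5 cytosolic genes had changes between -0.06 and 0.06 on their brightest probe sets. They were IARS1, LARS1, NARS1, WARS1 and YARS1, for isoleucine, leucine, asparagine, tryptophan and tyrosine. A dimmer probe set of YARS1 was higher by 0.23. Of the 3 other probe sets of LARS1, 1 was higher, by 0.03, where the brightest changed by -0.05. NARS1 changed by 0.05 ± 0.07 (SE) and IARS1 by -0.06 ± 0.08 (SE), although both hold the motif shown above. WARS1, which interferon gamma is known to induce, changed by 0.06 ± 0.08 (SE).

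The cytosolic genes were then grouped by their known control by ATF4. Of 11 measured genes listed as known ATF4 targets, 9 had a positive change, with both EDHB arrays above both untreated arrays in each of the 9 and below them in 1. Over all genes these shares were 23.2% and 22.5%, and 28.5% and 25.9% over genes at or above the median probe set. The median was 0.15 log2 units (0.12 within replicate 1 and 0.13 within replicate 2). On their brightest probe sets, the 6 other cytosolic genes had negative changes, with a median of -0.16 (-0.13 and -0.14 within the replicates). Of these, FARSB turned to 0.17 with the mean of its probe sets and to 0.0014 without untreated replicate 1. By promoter, the 6 measured cytosolic genes with the motif had a median change of 0.26, and the 8 without it had a median of -0.08. All 6 are among the known ATF4 targets, so this grouping is not separate from the one above. Of the 8, the known targets EPRS1, SARS1 and WARS1 had positive changes and the other 5 genes negative ones. Over all genes the median was -0.0014. These groups were chosen with earlier results of these arrays known, and no test was made of them.

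**Figure D4:**
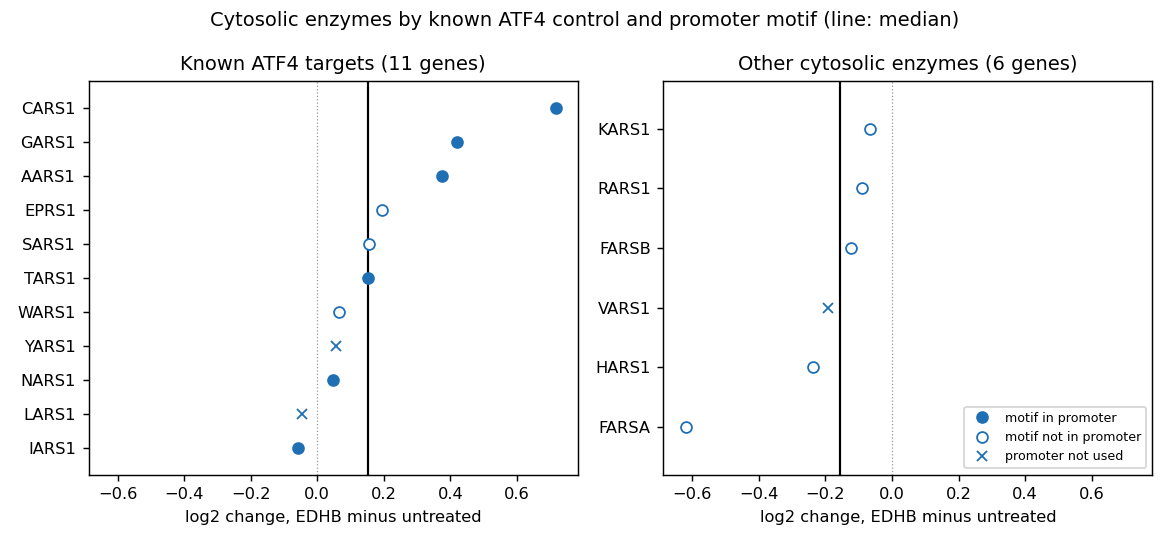
Log2 change (EDHB minus untreated) of 11 cytosolic genes known as ATF4 targets (left) and of 6 other cytosolic genes (right), with group medians as vertical lines. Filled points hold the motif in a promoter, open points do not, and crosses had no promoter used, and the 3 genes with the highest change all hold it.

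A further grouping was by the multisynthetase complex, a particle that holds several synthetases together with 3 scaffold proteins. Of 5 measured complex members, 4 had a small negative change (IARS1, KARS1, LARS1 and RARS1) and only EPRS1 a positive one, with a median of -0.06. The 12 free enzymes had a median of 0.06, 8 of them positive, and they held the extremes at both ends. Of the scaffold, AIMP1 was the only measured gene, with 10.81 and 10.80 on the EDHB arrays against 10.92 and 11.03 on the untreated arrays (limma adjusted p = 0.375). By catalytic class the medians were -0.10 over 16 class I genes and -0.06 over 15 class II genes, leaving out EPRS1, which has a domain of each.

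Among the mitochondrial enzymes, MARS2, which charges methionine, had the lowest change. Its log2 intensities were 6.44 and 6.19 on the EDHB arrays, against 7.09 and 7.18 on the untreated arrays. Its EDHB level was 56.6% of the untreated one, the lowest share of the 32 genes. The change was -0.82 ± 0.11 (SE, n = 2 and 2), with -0.65 and -0.99 within replicates 1 and 2 (limma adjusted p = 0.106, and 0.0354 with the intensity trend). NARS2, the asparagine enzyme, had 8.59 and 8.60 on the EDHB arrays and 9.02 and 9.05 on the untreated arrays. The arrays of each group lay very close together, and the change was -0.44 ± 0.07 (SE), with a limma adjusted p of 0.125, and of 0.0367 with the intensity trend. Each of these genes had 1 probe set.

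EARS2, the glutamate enzyme, had 8.09 and 7.93 on the EDHB arrays against 8.26 and 8.17 on the untreated arrays, a change of -0.20 ± 0.09 (SE). Of its 3 other probe sets 1 was higher, by 0.05, and the others changed by only -0.04 and -0.07. With the mean of its probe sets the change of EARS2 was -0.07. YARS2, for tyrosine, had 7.41 and 7.44 on the EDHB arrays and 7.53 and 7.71 on the untreated arrays. VARS2, for valine, had 7.95 and 7.97 on the EDHB arrays and 8.21 and 8.04 on the untreated arrays. In these 3 genes the EDHB arrays were below the untreated ones, and none passed in limma (adjusted p between 0.353 and 0.450). SARS2, the serine enzyme, had 6.40 and 6.53 on the EDHB arrays against 6.82 and 6.51 on the untreated arrays, so the groups overlapped, and its change was -0.42 within replicate 1 and 0.02 within replicate 2.

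The other 9 mitochondrial genes had changes between -0.15 and 0.04. LARS2, PARS2, CARS2, WARS2 and RARS2 had both EDHB arrays below both untreated arrays. AARS2, IARS2 and HARS2 overlapped, and FARS2, for phenylalanine, had both EDHB arrays slightly above. On their brightest probe sets, the 9 measured mitochondrial class I genes had negative changes, with a median of -0.15. Of 6 class II genes 4 had negative changes, and the median over all 6 was -0.09. Other probe sets went the opposite way in RARS2 (3 of 5), CARS2 (2 of 4) and WARS2 (1 of 2), some of them below the median probe set. The same held above that median for AARS2 (1 of 1, at 0.06 against -0.06) and FARS2 (1 of 2, at -0.11 against 0.04).

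For 12 amino acids a cytosolic enzyme of that amino acid alone and a mitochondrial enzyme were both measured, with FARSA taken for phenylalanine. The fused EPRS1 (0.19), for glutamate and proline, was not paired with EARS2 (-0.20) or PARS2 (-0.12), and its change was above theirs. The cytosolic change exceeded the mitochondrial one within both replicates in 7 pairs and was below it within both in 3. The difference, cytosolic minus mitochondrial, was 0.83 log2 units for cysteine (0.72 for CARS1 and -0.11 for CARS2), 0.48 for asparagine (0.05 for NARS1 and -0.44 for NARS2) and 0.43 for alanine (0.37 for AARS1 and -0.06 for AARS2). It was opposite for phenylalanine, at -0.66 (-0.62 for FARSA and 0.04 for FARS2), and for histidine, at -0.24. The median over the 12 pairs was 0.14, with 0.07 within replicate 1 and 0.16 within replicate 2. The pairs for isoleucine, valine and arginine differed by -0.00093, -0.03 and -0.05.

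**Figure D5:**
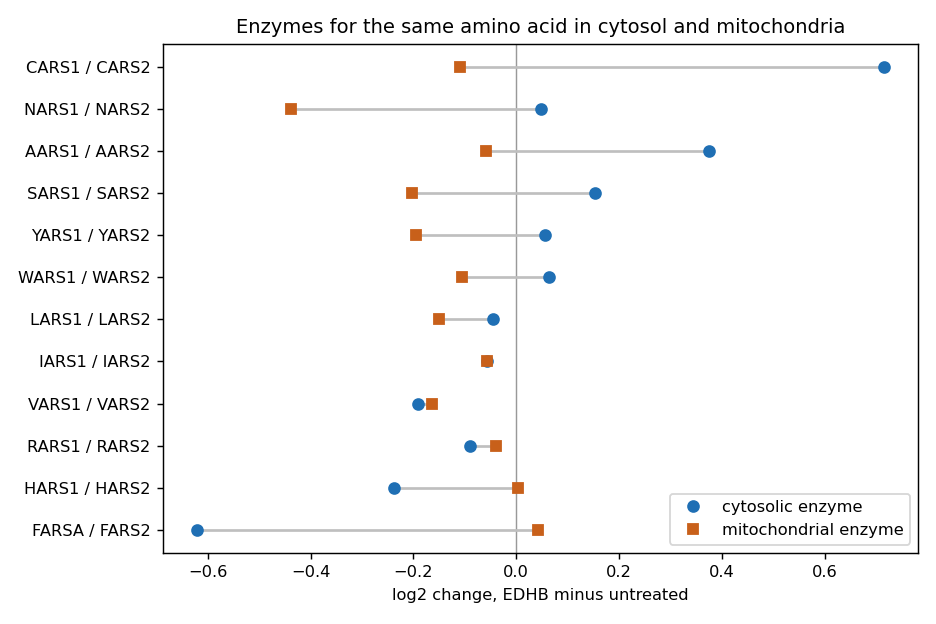
Log2 change (EDHB minus untreated) of the cytosolic enzyme (circle) and the mitochondrial enzyme (square) for 12 amino acids, ordered by the difference. The circle lies right of the square in the 7 upper pairs, from cysteine to leucine, and left of it for histidine and phenylalanine at the bottom.

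Of 10 measured genes of mitochondrial tRNA charging and delivery, 9 had a negative change, 7 had both EDHB arrays below both untreated arrays, and 3 had an unadjusted limma p under 0.05, with a median of -0.14. Over all genes, 50.5% had a negative change, 22.5% had both EDHB arrays below and 7.99% were lower at that p. After adjustment 0 of the 10 passed in either limma fit. These 3 were QRSL1 and GATB, subunits of the amidotransferase that makes glutaminyl-tRNA in mitochondria, and TRNT1, which adds the CCA end to tRNAs. QRSL1 had 8.47 and 8.26 on the EDHB arrays against 8.75 and 8.79 on the untreated arrays, a change of -0.40 ± 0.10 (SE, limma adjusted p = 0.168). TRNT1 had 8.74 and 8.75 on the EDHB arrays against 9.01 and 9.14 on the untreated arrays. GATB changed by -0.27 ± 0.10 (SE), with no overlap of the groups. The mitochondrial elongation factor TUFM changed by -0.05 ± 0.09 (SE).

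In the cytosol, the tRNA exporter XPOT changed by 0.17 ± 0.09 (SE) and the elongation factor EEF1A1 by -0.01 ± 0.07 (SE). TARS3, a second cytosolic threonine enzyme, had 5.79 and 5.90 on the EDHB arrays against 6.08 and 6.24 on the untreated arrays, the opposite side from TARS1, with a limma adjusted p of 0.227.

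Of 14 genes of uncharged tRNA sensing and the ATF4 response, 7 were higher and 2 lower at an unadjusted limma p under 0.05, where 8.8% of all genes were higher and 7.99% lower, with a median change of 0.39. After adjustment 0 of the 14 passed with the default prior and 3 with the intensity trend. ATF4 had 11.12 and 11.24 on the EDHB arrays against 10.64 and 10.55 on the untreated arrays, a change of 0.58 ± 0.09 (SE, limma adjusted p = 0.115, and 0.0227 with the intensity trend). TRIB3 and CHAC1, known ATF4 targets, were 1.70-fold and 2.65-fold higher and also passed in limma with the trend (adjusted p = 0.0317 and 0.0304). As for the synthetases, the trend calls of all 3 genes were lost with the replicate block and when any 1 array was left out. CHAC1 had untreated levels of 4.64 and 4.17 around the median probe set, so the size of its change is uncertain. EIF2AK4, the kinase that senses uncharged tRNA, had 6.46 and 6.48 on the EDHB arrays against 6.80 and 6.69 on the untreated arrays, a change of -0.28 ± 0.08 (SE). ATF5, a related factor whose translation also responds to eIF2 phosphorylation, had 7.46 and 7.39 on the EDHB arrays against 7.74 and 7.67 on the untreated arrays, a change of -0.28 ± 0.08 (SE, limma adjusted p = 0.202). ASNS lay far below the median probe set on its probe set used here, and no change is given for it alone, although it is counted among the 14 genes and in their median. In bulk RNA, a smaller amount of transcript in each cell and fewer cells that carry it cannot be told apart.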

How the data were processed

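The deposited values are intensity on a linear scale from Affymetrix arrays, and the submitters' processing notes name RMA as the tool the authors used (its version is not given in the sources used here). The log2 of each intensity was taken. Rows of the replicate 2 columns were put back in the replicate 1 order by matching the untreated arrays (a Student t spread of scale 0.15, df 3), and rows with a posterior of at least 0.95 were kept, 54459 of 54613. The replicate 2 columns open with 193 values set apart as higher or lower, of which 113 were restored, so counts over all genes miss some of the most changed. With the order restored, the EDHB arrays correlated at 0.997 over probe sets, against 0.418 as deposited. Because rows were matched by closeness of the untreated arrays, the spread between those arrays may be understated. Each gene was represented by its brightest probe set among those annotated to 1 gene. EDHB was compared with untreated over all 19753 genes in limma 3.58.1 (R 4.3.3), with Benjamini-Hochberg adjustment and a threshold of 0.05. Changes are EDHB minus untreated.

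In simulated data with 200 changed genes among 19753, the default fit recovered 0%, 78%, 82% and 100% of log2 changes of 0.5, 1, 1.5 and 2, and the trend fit 22%, 86%, 92% and 100%. The simulated variances followed the fitted intensity trend with independent normal noise, and rows were not matched. Recovery on the real arrays may therefore be lower. It also depends on the share of changed genes, which was set in the simulation and not matched to the real arrays. Values on every array are given for the 12 cytosolic and 6 mitochondrial genes with the largest absolute mean change. The members, gene lists and motif were chosen with earlier results of these data known. The 2 arrays in a group limit the precision. Alternatives were an intensity trend, a replicate block, other scalings, the mean of probe sets, the omission of dim genes, other posterior minimums and leaving out each array. All 4 deposited columns were used, and 0 were not.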

Additional observations from a re-analysis of the deposited data

How the results depend on the processing

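Over all genes, 2 passed limma's adjusted p under 0.05 in the default fit. The count was 375 with the intensity trend, 56 with arrays centred on their medians, 43 after cyclic loess, 426 without dim genes (fewer genes tested) and 38 with the mean of probe sets. It was 0 with the replicate block, 0 at a posterior minimum of 0.5, and 0 without any single array, also with the trend. Adding the block or leaving out an array under the trend was chosen after seeing the data, and also gave 0. Of the synthetase genes, 0 passed by default (7 at an unadjusted p under 0.05), 4 with the trend and 4 without dim genes. The unadjusted count of 7 was 11 with the trend, 11 with trend and block, 6 with the block, 4 to 7 leaving out single arrays (4 without EDHB replicate 2), and 5 to 9 under the trend. The cytosolic median of 0.05 was 0.016 after centring, 0.0027 in the replicate 1 pair and 0.014 to 0.051 leaving out single arrays (0.014 without untreated replicate 2). The mitochondrial median of -0.12 was -0.15 after centring, -0.14 after loess and -0.14 to -0.10 leaving out single arrays. Their difference of 0.16 was 0.11 in the replicate 1 pair and 0.12 to 0.19 leaving out single arrays. FARSB, at -0.12, turned to 0.17 with the mean of probe sets. It ran from -0.25 to 0.0014 leaving out single arrays (0.0014 without untreated replicate 1). The other 17 named genes kept their direction in all of these alternatives. The replicate 2 pair alone was not among the alternatives, and within it SARS2 changed by 0.02. The cause of these differences was not tested. The labels give replicate numbers and do not say what arrays of the same number share. In the replicate 2 columns, the values set apart as higher or lower follow the change between the same-numbered arrays, so the deposit pairs them. Deviations of same-numbered arrays correlated at 0.21 across 19753 genes, which are not independent. The default fit did not use this pairing, and the replicate block did. Without raw arrays, probe-level error is unknown here.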
